A study of Mus musculus with 4 samples.

Results

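Of the 5282 genes in the authors' deposited table, 6 are examined here: Foxc1, Foxc2, Aldh1a2, Ptgds, Igfbp2 and Myoc, transcription regulators and secreted products of the fibroblasts that build the meninges, the coverings of the brain. Each was matched by its symbol to 1 row. They were chosen by their levels and log2 fold changes in this same comparison, so their differences are described and no test of them is a result. Bulk RNA was taken at postnatal day 15 from corpus callosum together with cortex. 2 samples came from Pdgfra-creER;SmoM2 mice (SmoM2 in the following) and 2 from wild type littermates (WT), and tamoxifen was given to all 4 from postnatal day 5 to 7. The SmoM2 allele encodes Smoothened, the hedgehog signal transducer, in a permanently active state. Pdgfra-creER is a recombinase switched on by tamoxifen in cells that express Pdgfra, which include oligodendrocyte precursors and fibroblasts, meningeal ones among them. The comparison was made to find genes that respond to active Smoothened.

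Meningeal fibroblasts secrete the matrix and the growth factors of the brain's surface. Foxc1 and Foxc2 encode closely related forkhead transcription factors of head mesenchyme, and Foxc1 is required for the mouse meninges to form. Aldh1a2 encodes the enzyme that makes retinoic acid, and meninges are a source of that signal for the cortex beneath. Ptgds encodes prostaglandin D2 synthase, a lipocalin abundant in cerebrospinal fluid, Igfbp2 an insulin-like growth factor (IGF) binding protein, and Myoc myocilin, a secreted olfactomedin protein. Several of the 6 have other sources in brain: mature oligodendrocytes express Ptgds, astrocytes express Igfbp2 and Myoc, choroid plexus expresses Igfbp2, and pericytes and other vascular cells express Foxc1.

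The table was filtered by the authors to genes with an unadjusted p of at most 0.05. It gives a level per sample, scaled for library size and, as judged from the values, gene length; the unit, TPM or FPKM, is not named, and the table holds no read counts, so depth is unknown. Levels of all listed genes summed to between 469062 and 491481 in the SmoM2 samples and between 508519 and 512833 in the WT samples. Smo, the gene altered by design, read 10.73 and 10.96 with the SmoM2 allele, against 7.12 and 5.75 without it. Nothing in the labels ties each sample to an animal of its own, so p-values measure only the spread between these samples, which may be technical. Of the dissected tissue's own markers, Mbp, the myelin basic protein gene, read at least 1955.74 and Slc1a2, an astrocyte glutamate transporter gene, at least 271.05 in every sample. A gene "rose" or "fell" where the authors' deposited table gives an adjusted p no larger than 0.05. In bulk RNA, more cells of a type, whether in the tissue or carried along in dissection, and more RNA per cell cannot be told apart.

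The genes lie on different chromosomes except Myoc and Igfbp2, which share chromosome 1. In GENCODE M21 (GRCm38), Foxc1 (ENSMUSG00000050295) spans 31806633 to 31812476 on chromosome 13 and Foxc2 (ENSMUSG00000046714) spans 121116171 to 121118895 on chromosome 8, each with 1 exon. Aldh1a2 (ENSMUSG00000013584) spans 71215789 to 71296243 on chromosome 9, with 14 exons in its principal transcript. Ptgds (ENSMUSG00000015090) spans 25466709 to 25470046 on chromosome 2. Igfbp2 (ENSMUSG00000039323) spans 72824503 to 72852474, and Myoc (ENSMUSG00000026697) 162639155 to 162649693, both on chromosome 1. Ptgds is on the minus strand and the other 5 are on the plus strand.

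RefSeq promoter windows (GRCm38.p6) were found for 5 of the 6 genes. The 250 bases before the RefSeq start are shown for 4 of them, because they fall into sharply different base compositions although the genes were all higher in SmoM2. RefSeq starts differ from the GENCODE spans given above, except for Aldh1a2, whose window ends at the base before its span. The Ptgds window lies wholly inside the GENCODE span of Ptgds, and the Foxc1 window runs past the first base of its span. Capitals mark CpG pairs and, in Myoc, the letters TATAAA.
Aldh1a2, chr9:71215539-71215788, plus strand: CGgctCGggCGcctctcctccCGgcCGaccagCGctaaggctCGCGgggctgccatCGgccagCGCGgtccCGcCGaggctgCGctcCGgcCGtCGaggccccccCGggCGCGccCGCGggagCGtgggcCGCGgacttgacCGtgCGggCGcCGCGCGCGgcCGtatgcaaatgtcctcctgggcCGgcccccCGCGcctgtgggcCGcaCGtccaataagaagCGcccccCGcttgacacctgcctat
Foxc1, chr13:31806396-31806645, plus strand: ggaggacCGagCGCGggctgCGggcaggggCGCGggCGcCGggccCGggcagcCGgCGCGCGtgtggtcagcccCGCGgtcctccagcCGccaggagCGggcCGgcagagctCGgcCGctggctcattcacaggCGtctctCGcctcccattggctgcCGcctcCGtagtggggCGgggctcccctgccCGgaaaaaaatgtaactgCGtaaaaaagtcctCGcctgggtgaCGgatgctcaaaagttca
Ptgds, chr2:25469750-25469999, minus strand: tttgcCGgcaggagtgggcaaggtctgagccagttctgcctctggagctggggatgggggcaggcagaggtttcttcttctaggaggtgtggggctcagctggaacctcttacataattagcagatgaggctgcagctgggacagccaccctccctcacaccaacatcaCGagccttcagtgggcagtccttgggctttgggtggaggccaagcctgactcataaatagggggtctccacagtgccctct
Myoc, chr1:162638900-162639149, plus strand: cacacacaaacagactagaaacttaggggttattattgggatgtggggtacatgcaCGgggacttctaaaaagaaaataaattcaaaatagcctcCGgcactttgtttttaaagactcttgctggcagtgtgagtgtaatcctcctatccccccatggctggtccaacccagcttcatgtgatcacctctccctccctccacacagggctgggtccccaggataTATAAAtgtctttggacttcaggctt
The Aldh1a2 window holds 40 CpG pairs and the Foxc1 window 29, against 2 in each of the Ptgds and Myoc windows and a median of 6 over 32851 windows of the same length. GC content was 77.6% for Aldh1a2, 70.8% for Foxc1, 58.4% for Ptgds and 46.8% for Myoc. Igfbp2 lay between, with 14 CpG pairs and a GC content of 67.2% in the first of its 2 windows. Both strands were searched for the forkhead motifs TGTTTAC and TGTTTGC, the GLI motif GACCACCCA, the nuclear receptor half-site AGGTCA and the TATA box TATAAA. The only match was TATAAA, from base 26 to base 21 before the Myoc start. Of all windows, 3.17% hold TGTTTAC, 4.30% TGTTTGC, 0.225% GACCACCCA, 14.0% AGGTCA and 12.4% TATAAA.

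All 6 genes were higher in both SmoM2 samples than in both WT samples, and the authors' deposited table calls all 6 higher. Of all listed genes, 21.3% were called higher, 16.0% lower and 37.3% in either direction. Both SmoM2 samples lay above both WT samples for 49.5% of listed genes, and below them for 35.2%. Nothing is read from the counts of the 6, which these values chose. The median of the 6 log2 differences on the log2(level + 1) scale was 1.11, and the median over all listed genes was 0.25. Within each of the 4 samples the levels kept one order, Ptgds highest, then Igfbp2, Myoc, Aldh1a2, Foxc1 and Foxc2. Across samples, the ranges of Myoc and Aldh1a2, of Aldh1a2 and Foxc1, and of Foxc1 and Foxc2 overlapped.

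**Figure D1:**
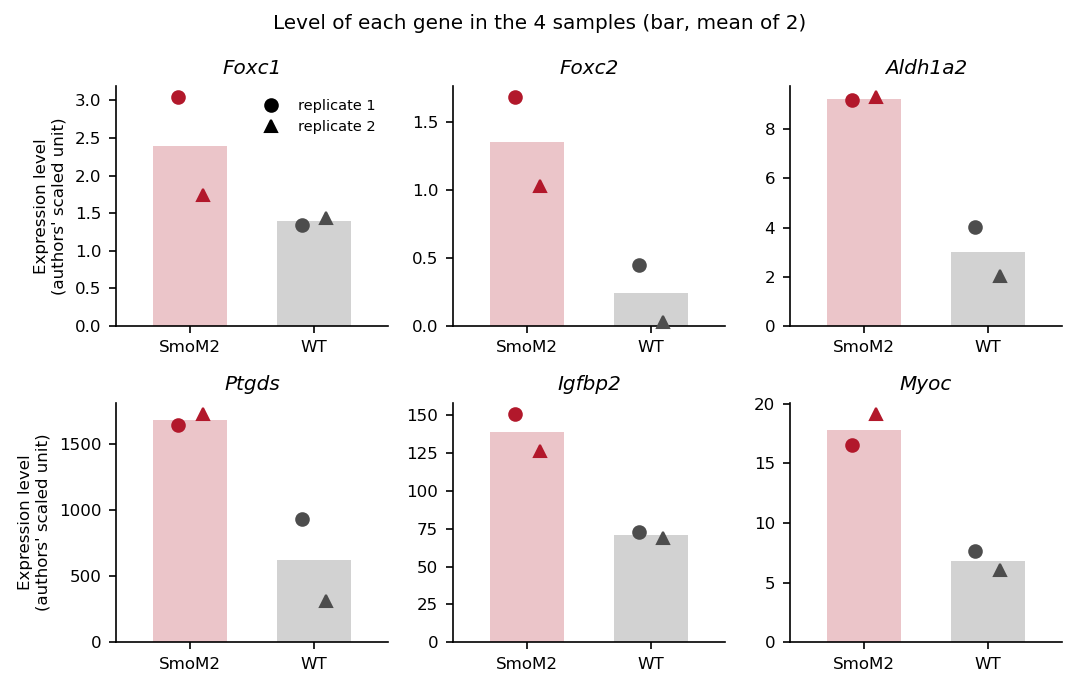
Expression level of the 6 genes in each sample, in the authors' scaled unit, with SmoM2 samples in red and WT samples in grey; bars are means of 2 samples and each panel has its own axis from 0. The SmoM2 points stand above the WT points in every panel, the WT samples of Ptgds stand far apart at 933.18 and 312.88, and the SmoM2 samples of Foxc1 read 3.04 and 1.74.

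The forkhead regulators were the lowest of the 6. Foxc1 read 3.04 and 1.74 in the SmoM2 samples, against 1.34 and 1.44 in the WT samples. The groups did not overlap, but the SmoM2 samples lay 1.75-fold apart, more than the 1.21-fold step between the lower SmoM2 sample and the higher WT sample. Foxc1 had a mean of 2.39 ± 0.919 in SmoM2 samples and of 1.39 ± 0.0707 in WT samples (SD, n = 2 each), with a log2 difference of 0.48 ± 0.27 (SE, limma). Without SmoM2 replicate 1 that difference was 0.20, and without SmoM2 replicate 2 it was 0.76. With all 4 samples it was 0.29 after quantile normalization and 0.20 with a pseudocount of 5. For Foxc1 the authors' deposited table lists a log2 fold change of 0.72 (adjusted p 0.0455), the weakest call of the 6. Foxc2 read 1.68 and 1.03 in the SmoM2 samples, against 0.45 and 0.03 in the WT samples. Both SmoM2 samples were clear of both WT samples, which themselves lay 15-fold apart, the lower of them near the last printed decimal. Foxc2 had a mean of 1.355 ± 0.460 in SmoM2 samples and of 0.24 ± 0.297 in WT samples (SD, n = 2 each). Its log2 difference was 0.93 ± 0.25 (SE, limma, fitted without the filter on low levels), a scale that compresses low genes, and in the authors' deposited table the log2 fold change is 2.31 (adjusted p 0.000127). SmoM2 replicate 1 was thus the higher SmoM2 sample for both factors, while the lower WT sample was replicate 1 for Foxc1 and replicate 2 for Foxc2. The level of Foxc1 over that of Foxc2 was 1.81 and 1.69 in the SmoM2 samples, against 2.98 and 48 in the WT samples.

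Aldh1a2, the retinoic acid enzyme, read 9.20 and 9.29 in the SmoM2 samples, against 4.02 and 2.01 in the WT samples. The SmoM2 samples were nearly equal, and the WT samples were 2-fold apart. It had a mean of 9.245 ± 0.0636 in SmoM2 samples and of 3.015 ± 1.42 in WT samples (SD, n = 2 each), which is 1.40 ± 0.27 as a log2 difference (limma, SE). In the authors' deposited table the log2 fold change is 1.52 (adjusted p 3.25e-09). With either WT sample left out the log2 difference was 1.03 or 1.77, and with either SmoM2 sample left out it was 1.40 or 1.39.

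Ptgds was the most abundant of the 6 and ranked 50 by mean level among all listed genes. It read 1641.07 and 1727.50 in the SmoM2 samples, against 933.18 and 312.88 in the WT samples. The SmoM2 samples were close together, but the WT samples differed by 2.98-fold, more than the 1.76-fold step between the lower SmoM2 and the higher WT sample. Ptgds had a mean of 1684 ± 61.1 in SmoM2 samples and of 623 ± 439 in WT samples (SD, n = 2 each), which is 1.64 ± 0.46 as a log2 difference (limma, SE) that was 0.85 without WT replicate 2 and 2.42 without WT replicate 1. In the authors' deposited table the log2 fold change is 1.34 (adjusted p 1.64e-39). Run on the levels, limma gave Ptgds an unadjusted p of 0.0117.

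Igfbp2, which binds IGF1 and IGF2 and holds them outside the cell, read 150.53 and 126.15 in the SmoM2 samples, against 72.81 and 69.02 in the WT samples. The samples of each group were close, and the groups were well apart. It had a mean of 138 ± 17.2 in SmoM2 samples and of 70.9 ± 2.68 in WT samples (SD, n = 2 each), which is 0.95 ± 0.11 as a log2 difference (limma, SE); the authors' deposited table lists 0.90 (adjusted p 1.47e-13). Myoc read 16.52 and 19.13 in the SmoM2 samples, against 7.63 and 6.03 in the WT samples. The lower SmoM2 level was 2.17 times the higher WT level. Myoc had a mean of 17.8 ± 1.85 in SmoM2 samples and of 6.83 ± 1.13 in WT samples (SD, n = 2 each), which is 1.27 ± 0.17 as a log2 difference (limma, SE); the authors' deposited table lists 1.30 (adjusted p 1.13e-10). Leaving out any one library kept Igfbp2 between 0.82 and 1.08 and Myoc between 1.12 and 1.42.

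**Figure D2:**
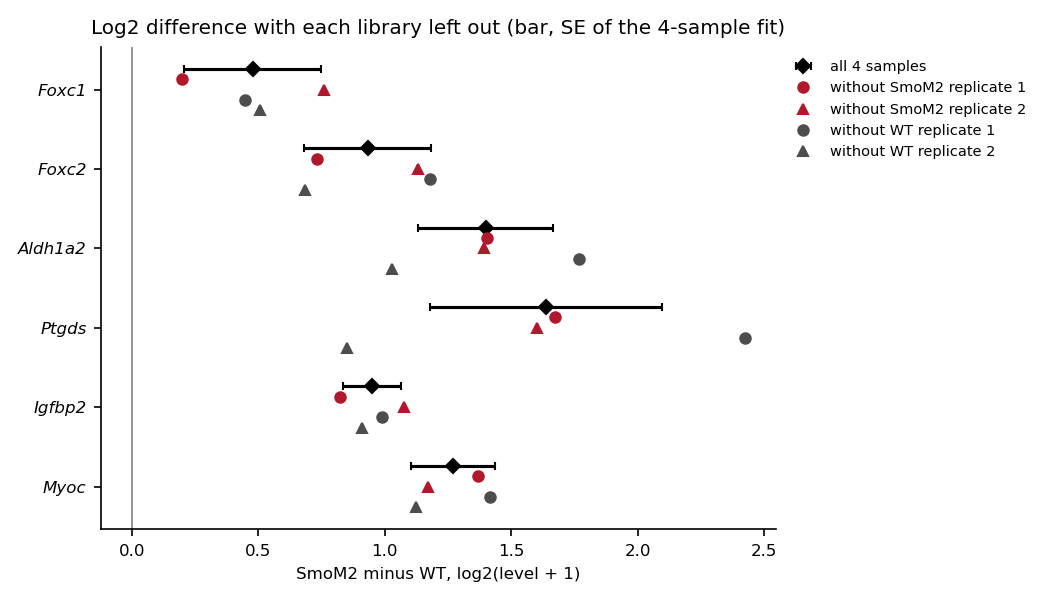
SmoM2 minus WT difference on the log2(level + 1) scale for each gene, from all 4 samples (black, with SE) and with each library left out. Every point lies above 0; Ptgds spreads most, between 0.85 and 2.42, and Foxc1 comes nearest to 0, at 0.20 without SmoM2 replicate 1.

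The 6 genes did not share one pattern across samples. Ptgds, Aldh1a2, Foxc2 and Myoc were lowest in WT replicate 2, Igfbp2 was nearly level between the WT samples, and Foxc1 was slightly lower in WT replicate 1. Among SmoM2 samples, Foxc1, Foxc2 and Igfbp2 were higher in replicate 1, and Aldh1a2, Ptgds and Myoc were higher in replicate 2. The level of Ptgds over that of Igfbp2 was 10.9 and 13.7 in the SmoM2 samples, against 12.8 and 4.53 in the WT samples. The level of Ptgds over that of Aldh1a2 varied less, at 178 and 186 in the SmoM2 samples, against 232 and 156 in the WT samples. Of the 15 pairs, the profiles of Foxc2 and Igfbp2 were nearest on the centred log2(level + 1) scale, at a Euclidean distance of 0.313 over the 4 samples, and those of Ptgds and Foxc1 were farthest, at 1.70. The nearness of Foxc2 and Igfbp2 rests on the added constant of 1, which compresses Foxc2: with 0.1 in its place their log2 differences were 2.41 and 0.96.

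By the same distance, taken to every listed gene with a mean level of at least 1, the nearest profile to Aldh1a2 was Pbx3, a homeodomain factor, at a distance of 0.0983. Pbx3 read 14.71 and 13.80 in the SmoM2 samples, against 6.82 and 3.71 in the WT samples. Fam180a and Xlr3b came next, and Xlr3b has near-identical copies, so its level is uncertain. Nearest to Myoc were Nr2f2, which encodes the nuclear receptor COUP-TFII, Gstp2, which has a near-identical copy, and Hap1. Nr2f2 read 16.27 and 20.06 in the SmoM2 samples, against 7.26 and 6.26 in the WT samples. Nearest to Foxc2 were C230034O21Rik, Smoc1, a secreted matrix protein gene, and Stra6, the receptor for retinol-binding protein. This likeness too belongs to the compressed scale, since their log2 fold changes in the authors' deposited table are 1.04, 0.91 and 0.97, against 2.31 for Foxc2. Nearest to Foxc1 were Slc27a1, Tie1, an endothelial receptor, and Meis2, and of these Tie1 alone passed the threshold in the authors' deposited table. Nearest to Igfbp2 were Stac, Vangl2, a planar cell polarity gene, and Trim67. Ptgds had no close neighbour: ENSMUSG00000120774, Fam180a and Zfp973 were nearest, at 0.462 to 0.504, beyond the distances of 0.0676 to 0.180 found for the other 5 genes. With 4 samples such likeness is a description.

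Markers of leptomeningeal fibroblasts, the cells the 6 genes are named for, were mostly higher in SmoM2 where they had a row. Besides Foxc1, Foxc2, Aldh1a2 and Ptgds, the list holds 21 markers, of which 16 had a row, 15 were higher and 14 rose; Dpp4 was lower without passing, and Slc22a8 was higher without passing. Their median log2 fold change was 1.36 in the authors' deposited table, where the median of all listed genes was 0.23. Cdh1, the E-cadherin gene of the arachnoid layer, read 1.5 and 1.18 in the SmoM2 samples, against 0.19 and 0.27 in the WT samples. Col1a1, a fibrillar collagen gene, read 14.36 and 7.42, against 2.34 and 2.03 in the WT samples, and Slc22a6, an organic anion transporter gene, read 3.56 and 2.53, against 0.70 and 0.94 in the WT samples. Summed over the 16, levels were 203 and 165 in the SmoM2 samples, against 92.2 and 88.2 in the WT samples. Both SmoM2 samples were above both WT samples for 13 of the 16, and for 49.5% of all listed genes. Lama1, a laminin gene, and Col3a1, a collagen gene, rose although their groups overlapped. The WT sums are close, and 9 of the 16 were lower in WT replicate 2, whereas Ptgds and Aldh1a2 both were. The SmoM2 sums differ, with 13 of the 16 lower in SmoM2 replicate 2, the direction of Foxc1, Foxc2 and Igfbp2. Pdgfra, Lum, Ogn, Cemip and S100a6 have no row. They missed the authors' filter on the unadjusted p or were not tested, and their direction is unknown. The counts and the median above therefore cover only markers that passed that filter in this same comparison.

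**Figure D3:**
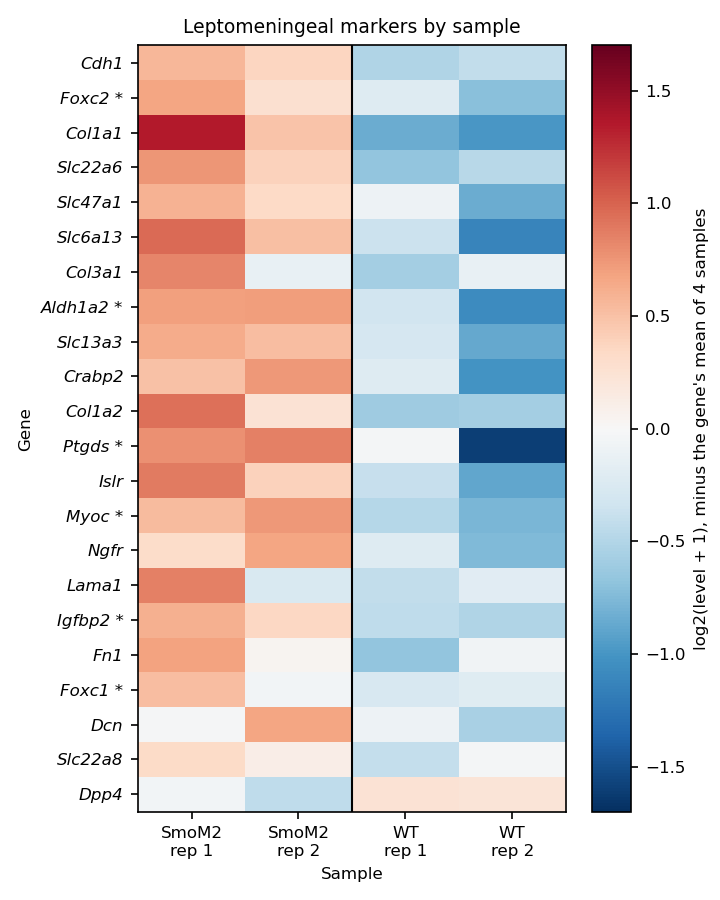
Log2(level + 1) minus the gene's mean of 4 samples, for leptomeningeal markers with a row and for Myoc and Igfbp2, ordered by the authors' log2 fold change; asterisks mark the 6 genes. Most rows are red in both SmoM2 columns and blue in both WT columns, Dpp4 at the bottom runs the other way, and Ptgds has the darkest blue cell, in WT replicate 2.

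The few other transcription factors of meningeal mesenchyme that had a row ran in the same direction at low level. Of 16 besides Foxc1 and Foxc2, 4 had a row and all 4 were higher, and Foxd1 was the one that rose. Foxd1, a forkhead gene of the meninges, read 1.65 and 0.84 in the SmoM2 samples, against 0.49 and 0.40 in the WT samples, and its log2 difference of 0.61 was 0.35 without SmoM2 replicate 1. Meox1, Six2 and Lmx1b missed the threshold, with 0.203, 0.0906 and 0.163 as the adjusted p the authors' deposited table gives. Tbx18, Zic1, Twist1 and the other 9 have no row, so their direction is unknown. Among 42 forkhead factors other than Foxc1 and Foxc2, 8 had a row, 4 rose, and Foxp1 fell although its groups overlapped. Those that rose were Foxd1, Foxd2, Foxp4 and Foxo6. Foxd2 read 0.59 and 0.18 in the SmoM2 samples, against 0.06 and 0 in the WT samples, and its log2 difference of 0.41 was 0.20 without SmoM2 replicate 1. Foxo6, a forkhead factor of neurons, read 29.21 and 30.78, against 14.63 and 16.03 in the WT samples.

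Retinoid genes went in both directions. Of 22 besides Aldh1a2, 8 had a row, 4 rose and 1 fell. The binding proteins Crabp1 and Crabp2, which carry retinoic acid inside cells, and Stra6 rose, as did the receptor Rara. Crabp2 read 6.27 and 7.6 in the SmoM2 samples, against 3.44 and 1.55 in the WT samples. Crabp1 read 10.45 and 16.52, against 8.04 and 2.62 in the WT samples, and its log2 difference of 1.31 was 0.65 without WT replicate 2 and 1.97 without WT replicate 1. Stra6 read 7 and 5.11, against 3.77 and 2.35 in the WT samples. The level of Aldh1a2 over that of Crabp2, which is also among the 16 leptomeningeal markers above, stayed between 1.17 and 1.47 in all 4 samples. Crabp2 was the only one of the 16 set against Aldh1a2 in this way. Only 9 of the 16 were, like Aldh1a2, lower in WT replicate 2 than in WT replicate 1. The paralogs of Aldh1a2 ran the other way and are named here after their values were seen. Aldh1a1, which also oxidises retinal, fell, with 33.74 and 34.14 in the SmoM2 samples, against 53.26 and 49.19 in the WT samples. Aldh1a3 read 3.11 and 2.72, against 4.44 and 3.93 in the WT samples, and missed the threshold (adjusted p 0.0734, authors' deposited table). Cyp26b1, Rarb and Rdh10 are among the 14 without a row.

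Of 21 prostaglandin genes besides Ptgds, 8 had a row, 2 rose and 1 fell. Ptgdr, a receptor for prostaglandin D2, read 0.42 and 0.53 in the SmoM2 samples, against 0.04 and 0.13 in the WT samples. Ptgis, the prostacyclin synthase gene, read 3.36 and 3.52, against 1.40 and 1.16 in the WT samples. Ptgs2, the inducible cyclooxygenase that supplies the substrate of these synthases, fell, with 1.07 and 1.55 in the SmoM2 samples, against 2.47 and 2.53 in the WT samples. Groups were apart for all 3, as they were for the other prostaglandin genes with a row. Both SmoM2 samples lay above both WT samples for 49.5% of all listed genes, and below them for 35.2%.

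IGF genes other than Igfbp2 had a row in 7 of 20 cases, and 2 rose and 1 fell. Igf2, a growth factor that meninges and choroid plexus secrete, read 110.78 and 101.75 in the SmoM2 samples, against 56.66 and 49.47 in the WT samples. Its log2 difference of 0.99 ± 0.11 (SE, limma) is close to the 0.95 of Igfbp2. Igfbp5, which lies 5.46 kb downstream of Igfbp2, rose less, with 54.64 and 49.74 in the SmoM2 samples, against 36.00 and 41.29 in the WT samples. Igfbp3 fell, with 14.71 and 14.53, against 19.76 and 18.17 in the WT samples. Igf1, Igf1r and Insr have no row. Of 12 olfactomedin domain genes besides Myoc, 6 had a row; Olfml2a and Olfml3 rose and Olfml2b fell. Olfml3 read 8.53 and 7.97 in the SmoM2 samples, against 4.93 and 4.55 in the WT samples. Without SmoM2 replicate 1 the log2 difference of Olfml2a was 0.19, against 0.53 with all samples, and that of Olfml2b was -0.26, against -0.44.

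Secreted factors of the meninges that had a row were mostly higher too. Of 17 besides Ptgds, Igfbp2 and Myoc, 10 had a row, 9 were higher and 8 rose, while 21.3% of all listed genes were called higher. Dcn and Islr were counted above among leptomeningeal markers, and Igf2 among IGF genes. The 7 without a row, Bmp4 and Ogn among them, have no known direction here. Bmp6, a bone morphogenetic protein gene, read 6.01 and 4.94 in the SmoM2 samples, against 2.06 and 1.46 in the WT samples, and Islr, which encodes the fibroblast protein meflin, read 22.27 and 15.48, against 8.60 and 5.79 in the WT samples. Cxcl12, a chemokine that meninges secrete, was lower and missed the threshold (adjusted p 0.227, authors' deposited table).

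**Figure D4:**
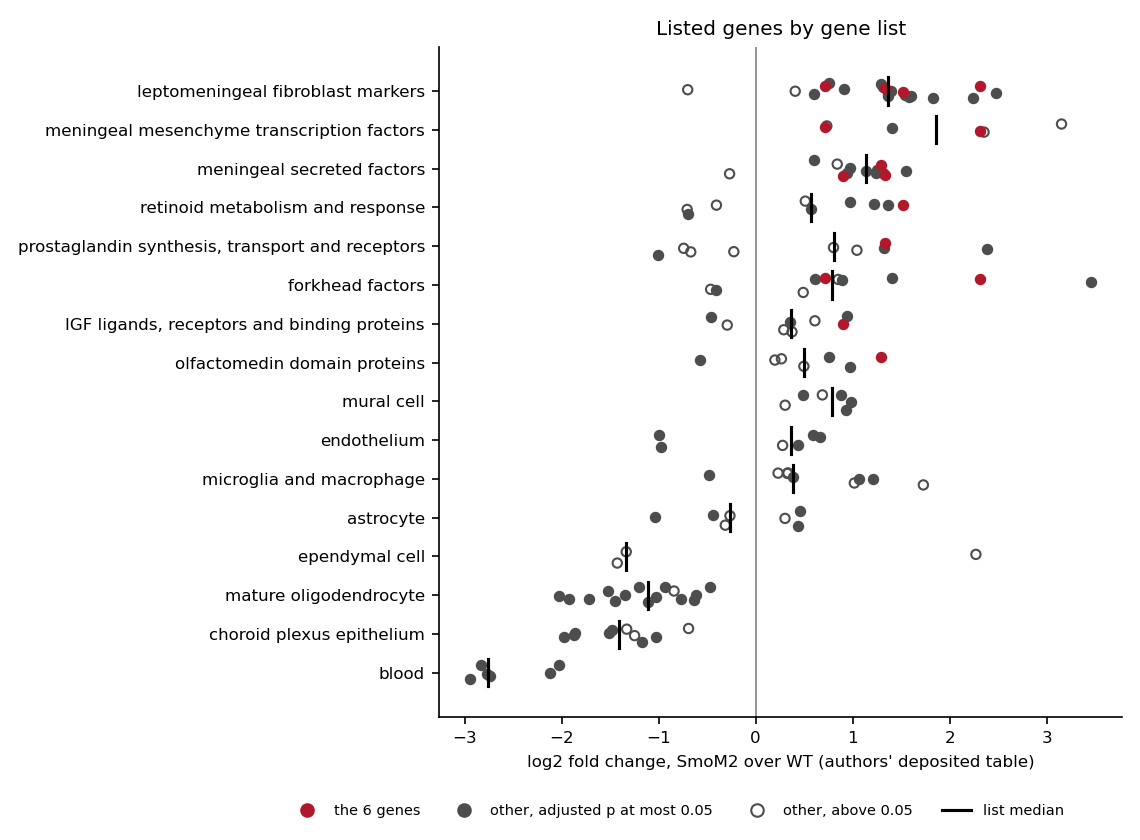
Log2 fold change of SmoM2 over WT in the authors' deposited table for genes with a row, by gene list; red points are the 6 genes, filled points passed an adjusted p of 0.05, open points did not, and black ticks are list medians. The leptomeningeal list has a median of 1.36, and the medians of the mature oligodendrocyte, choroid plexus and blood lists are -1.11, -1.41 and -2.76.

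Marker genes of other cell types that express some of the 6 ran in both directions. Of 16 mature oligodendrocyte genes, 15 had a row and 14 fell. Their summed level was 3111 and 3516 in the SmoM2 samples, against 6483 and 6101 in the WT samples. Of 14 astrocyte genes, 7 had a row, 2 rose and 2 fell, and Gfap and Aqp4 were the ones that rose. The astrocyte sum was 1429 and 1314 in the SmoM2 samples, against 1539 and 1394 in the WT samples, and its ranges overlapped. Aldoc and Slc1a2 made up most of that sum. Choroid plexus epithelium genes had a row in 10 of 12 cases; all 10 were lower and 7 fell. Their sum was 154 and 733 in the SmoM2 samples, against 1375 and 1410 in the WT samples. Much of it was 1 gene, Ttr, at 71.24 and 618.04 in the SmoM2 samples, against 1202.66 and 1162.48 in the WT samples. The 2 SmoM2 sums differ widely but lie below both WT sums. Of 10 mural cell genes, 6 had a row, all higher, and 4 rose. The groups of Pdgfrb and Myh11 overlapped, and without SmoM2 replicate 1 their log2 differences were 0.04 and -0.23. Mural sums, mostly Vtn, were 146 and 123 in the SmoM2 samples, against 79.6 and 64.0 in the WT samples. Blood genes fell in all 6 of 7 with a row, with sums of 65.6 and 120 in the SmoM2 samples, against 662 and 450 in the WT samples. Endothelial genes split, with 3 that rose and 2 that fell among 6 of 11 with a row. No gene of the ciliated ependymal list passed in 3 of 10 with a row. In the hedgehog list, 7 genes besides Foxc1 and Foxc2 had a row, all higher with no overlap between groups, as were 49.5% of all listed genes. Their median log2 fold change was 0.48 in the authors' deposited table, against 0.23 for all listed genes. Of the 7, Mycn, Ccnd1 and Smo itself, the gene altered by design, rose, and 4 did not pass. Gli1, Ptch1 and Hhip are among the 11 without a row. How much these differences in cell type markers bear on the 6 genes was not tested.

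Few genes next to the 6 were listed. Within 200 kb in GENCODE M21, Foxc1 and Foxc2 each have 10 other annotated genes and Aldh1a2 has 5, and none of these has a row. Myoc has 10, of which Fmo1 rose and Vamp4 was lower without passing. Ptgds has 38, and all 6 with a row were higher in SmoM2, of which Ajm1 and Fcna rose. Over all listed genes, 49.5% had both SmoM2 samples above both WT samples and 21.3% were called higher. Anapc2, Fbxw5 and Npdc1, among the 6, had log2 fold changes of 0.22, 0.23 and 0.29, against a median of 0.23 over all listed genes. Ajm1 had a log2 fold change of 0.49 and Fcna one of 1.87 in the authors' deposited table, with Fcna, a ficolin gene of macrophages, at 2.39 and 1.96 in the SmoM2 samples, against 0.79 and 0.30 in the WT samples.

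When limma was run on the levels and its p-values adjusted over 57010 tests, the number that the authors' adjusted p-values imply, 0 of the 5 whose mean level reached 1 passed, with adjusted p-values from 0.149 to 1, although 4 had an unadjusted p under 0.05. That fit called 6 of 4845 genes, or 0.124%. Its variances were estimated only from genes that the authors had kept at an unadjusted p of at most 0.05, so these counts are descriptions. The calls of the 6 genes given here are those of the authors' deposited table.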

How the data were processed

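RNA-seq was done on 4 samples, per the labels' protocols from 1 ug of total RNA with Illumina TruSeq libraries. Per the submitters' processing notes, RSEM, DESeq2 and GRCm38.p6 were used; their roles and versions are not given in the sources used here. The authors' deposited table gives, for genes at p of at most 0.05, an expression signal per sample (the level), the fold between groups as a ratio and in log2, and p-values before and after adjustment. The series text also names a fold threshold, but listed genes fall below it, Foxc1 and Igfbp2 among them. Columns were tied to samples by the series text. Depth and precision per sample are unknown, since no counts are given.

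The 6 genes, the gene lists and the tests were chosen with earlier results of these data known. Levels were set out per sample. Log2 differences and standard errors, given as descriptions, came from limma 3.58.1 (R 4.3.3, trended variance) on log2(level + 1) for the 4845 genes whose mean level reached 1. Foxc2 has a mean level under 1 and was fitted without that filter. The steps were tested on simulated data. 17 lists with 275 genes, some of them in more than 1 list, were counted against the authors' calls, with no set test. Up to 4 called genes per list with the largest fold change and no overlap between groups are named, and list genes named beside them were chosen after their values were seen. Motifs were searched in the 250 bases before each RefSeq start. Alternatives were pseudocounts of 0.1 and 5, other filters and scalings, a replicate block and each library left out.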

Additional observations from a re-analysis of the deposited data

How the results depend on the processing

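All 6 genes stayed higher in SmoM2 in every alternative that could be computed. A minimum mean level of 5 left out Foxc1 and Foxc2. The median log2 difference, 1.11, was 1.51 with a pseudocount of 0.1, a setting that raised Foxc2 to 2.41. With a pseudocount of 5 the differences were 0.20 for Foxc1, 0.28 for Foxc2, 0.84 for Aldh1a2 and 0.95 for Myoc. Under equal medians and under quantile normalization the median shift over all listed genes was -0.11 on the log2 scale, and no direction turned among 136 list genes. Single genes moved by other amounts, and Foxc1 was 0.29 under quantile normalization, against 0.48. With 1 library left out, the lone sample of its group was assumed to vary like the other group. In these fits the median of the other leptomeningeal markers lay between 0.90 and 1.14, an alternative chosen after seeing the data. Recalculated with limma, 0 of the 5 genes fitted passed an adjusted p of 0.05 (4 had an unadjusted p under 0.05), and without the filter on low levels 0 of 6 did (5 unadjusted). Both fits drew their variances from the authors' filtered genes alone.

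Replicate numbers are shared by both groups, but nothing in the labels says that they pair samples, and deviations of same-numbered samples correlated at -0.0934 over 4845 genes. With the replicate block the median log2 difference was again 1.11, 0 of the 5 genes fitted passed (lowest adjusted p 0.0837, limma), and 20 of all genes were called, against 6 without it. Without read counts, low levels such as 0.03 for Foxc2 carry no stated precision.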

Other observations

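Of 12 genes in a mixed list of microglia and macrophages, 9 had a row, 3 rose and 1 fell. Mrc1, Lyve1, Pf4 and Cd163, known from macrophages of the meninges and vessels, were picked out of it after their values were seen, and 2 of these 4 rose. Mrc1, the mannose receptor gene, rose, with 2.93 and 2.07 in the SmoM2 samples, against 1.21 and 1.06 in the WT samples. Lyve1 rose, with 1.61 and 2.59, against 0.82 and 0.40 in the WT samples. Pf4 read 8.36 and 5.76, against 3.28 and 1.5 in the WT samples, and missed the threshold (adjusted p 0.0533, authors' deposited table). Cd163 was higher and missed it too, at 0.231. Of the others, C1qb rose, P2ry12 fell although its groups overlapped, and Csf1r, Tmem119 and C1qa were higher without passing. Summed over the 9 genes, levels were 354 and 315 in the SmoM2 samples, against 257 and 263 in the WT samples.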
